A study of Rattus norvegicus with 43 samples.

Results

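Sgk1, Tsc22d3, Fkbp5, Zbtb16 and Klf9, which are mRNAs induced by corticosteroid hormones, were followed in rat kidney cortex together with the genes of both corticosteroid receptors (Nr3c1 and Nr3c2) and of both enzymes that set the local supply of active hormone (Hsd11b1 and Hsd11b2). The genes were chosen by name. All 9 were found, on 11 of 32545 rows of the normal salt table and of 34899 rows of the high salt table, and all 9 passed the expression filter on both diets. Nr3c1 and Tsc22d3 each had a second, shorter row, and the longer row stands for the gene below.

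The animals were male Dahl salt-sensitive rats of the SS strain and rats of that strain labelled SSper1-/- (written here as labelled Per1KO), in which the clock gene Per1 is named as altered. Both were fed 0.4% NaCl (normal salt) or 4% NaCl (high salt) for 3 weeks, and kidney cortex was taken at 2pm, in the inactive phase, or at 2am, in the active phase. The 43 poly(A) RNA libraries fall into 8 groups: 6 SS and 6 labelled Per1KO at 2pm and 6 SS and 5 labelled Per1KO at 2am on normal salt, and 5 in each group on high salt. The labels give no ages, do not say which part of Per1 was altered, and do not state that each library is a separate rat, so p-values measure the spread between libraries.

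Corticosteroids act through intracellular receptors. The glucocorticoid receptor (Nr3c1) is present in most cells and binds corticosterone, the main glucocorticoid of rats, whereas the mineralocorticoid receptor (Nr3c2) binds both aldosterone and corticosterone and acts in the distal nephron on sodium reabsorption. Hsd11b2 inactivates corticosterone in aldosterone target cells and so keeps it from the mineralocorticoid receptor, while Hsd11b1 regenerates active hormone. Circulating corticosterone of nocturnal rodents peaks near the start of the active phase, and hormone levels are not part of these data.

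On normal salt, Sgk1 and Tsc22d3 were higher at 2am than at 2pm in SS rats, and in rats labelled Per1KO neither changed detectably between these times. The difference between the labels in this day to night change passed for both genes and for Nr3c1, whose call was lost in 16 of 28 alternatives. Fkbp5 rose from 2pm to 2am in rats labelled Per1KO, a call lost in 9 of 17 alternatives, and the difference between the labels in its change did not pass (adjusted p = 0.103). On high salt, Sgk1 rose at 2am in SS, a call lost in 6 of 17 alternatives. The enzyme gene Hsd11b1 was lower there at 2pm in rats labelled Per1KO, a call lost in 4 of 20. Levels are in FPKM, the fragments of a gene per kilobase of its length and per unit of library size, so levels of different genes can be set side by side. Tests were made with limma on log2(FPKM + 1), with Benjamini-Hochberg adjustment over all genes tested, and a gene passes at an adjusted p below 0.05. Differences are log2 differences on that scale ± SE, 2am minus 2pm or labelled Per1KO minus SS.

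Several facts about the libraries bear on these values. Libraries held 24 to 41.6 M fragments on normal salt and 15.3 to 27.6 M on high salt. Per1 mRNA did not pass between the labels in any of the 4 comparisons (group means 12 to 17.3 FPKM on normal salt and 8.43 to 15 on high salt), so the label is not checked by the transcript. Proximal tubule markers were present in every library, and their summed level was low in SS normal salt 2pm replicate 5 (1560 FPKM, others of the group 3460 to 4280) and in SS high salt 2pm replicates 4 and 5 (827 and 1690 FPKM, others 3140 to 4670). The same libraries were also low in podocyte markers (33.3 FPKM, others 99.8 to 174, and 15.8 and 42, others 85.8 to 148). They were high in thick ascending limb markers (3130 FPKM, others 852 to 1530, and 2680 and 2220, others 921 to 1760). The difference was thus not confined to the proximal tubule. Pvalb, a marker of the distal convoluted tubule, was at 0 in 42 libraries. Of 6 markers of the adrenal cortex, where these steroids are made, the aldosterone synthase gene Cyp11b2 reached at most 0.0566 FPKM, the steroidogenic regulator Star 0.993 and the 21-hydroxylase gene Cyp21a1 1.56. Cyp11a1, the side-chain cleavage enzyme gene, was above 0 in every library (mean 3 and highest 5.53 FPKM), the only one abundant enough to be tested, and at 2pm on high salt it was higher in rats labelled Per1KO (0.99 ± 0.26, adjusted p = 0.00822). The SS normal salt 2pm libraries carry library names with the prefix OK and all others AZ, so in every comparison with that group the name series and the group cannot be told apart. All 2am libraries carry higher library numbers than all 2pm libraries, so in every comparison of times the number series and the time cannot be told apart. In bulk tissue, fewer cells of a type and less RNA per cell cannot be told apart.

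Sgk1 encodes serum- and glucocorticoid-regulated kinase, which aldosterone and glucocorticoids induce and which raises the activity of the epithelial sodium channel (gene ENSRNOG00000011815 of the tables, chromosome 1, 24185435 to 24302298, minus strand; build not given in the sources used here). In SS rats on normal salt the 2pm libraries held 26.4, median 38.7 and 70.3 FPKM as lowest, middle and highest values, and the 2am libraries 75.4, median 148 and 194 FPKM. Every 2am library lay above every 2pm library. The rise was 1.63 ± 0.22 (adjusted p = 2.53e-05). Rats labelled Per1KO had 2pm libraries from 66.4 to 110 FPKM with a median of 93.5, and 2am libraries at 105, 108, 96, 72.6 and 91.8 FPKM. These groups overlapped over nearly their whole range, with a difference of 0.02 ± 0.23 (adjusted p = 0.974, 95% interval -0.43 to 0.47). The change with time was thus smaller in rats labelled Per1KO by 1.61 ± 0.32 on the log2 scale (interaction -1.61, adjusted p = 0.01).

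Sgk1 was higher in rats labelled Per1KO than in SS at 2pm on normal salt, by 1.14 ± 0.22 (adjusted p = 0.022), with 1 SS library, replicate 6 at 70.3 FPKM, above the lowest labelled Per1KO library. At 2am the difference was -0.47 ± 0.23 and did not pass (adjusted p = 0.256). The 2pm difference between labels, the SS change with time and the interaction all use the same SS 2pm libraries, those with the OK names. The call at 2pm was lost when any of SS replicate 2 or labelled Per1KO replicates 1, 4 or 6 was left out (adjusted p 0.0536 to 0.0661), with no expression filter (0.0771) or in a fit of only the groups compared (0.101), while the SS rise with time and the interaction passed in every alternative run (18 and 28 fits).

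**Figure D1:**
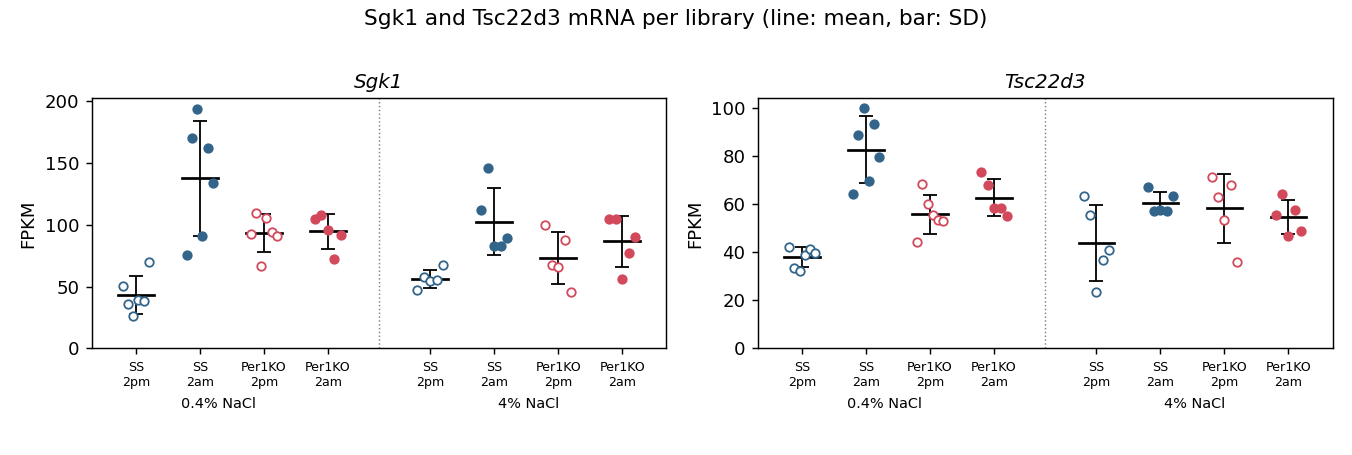
FPKM of Sgk1 and Tsc22d3 in each of the 43 libraries (y axis) by group (x axis: genotype label and time; left of the dotted line 0.4% NaCl, right 4% NaCl). Open points are 2pm and filled points 2am, blue SS and red labelled Per1KO, with the group mean (line) and SD (bar): on normal salt every SS 2am library lies above every SS 2pm library for both genes (Sgk1 means 138 and 43.4 FPKM), and the red groups overlap.

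Tsc22d3 encodes GILZ, the glucocorticoid-induced leucine zipper, which dampens inflammatory signalling (ENSRNOG00000056135, chromosome X, 111884295 to 111887906, minus strand, build not given). In SS on normal salt it ranged from 32.3 to 42.3 FPKM at 2pm (median 39.2) and from 64.3 to 100 FPKM at 2am (median 84.1). The groups did not overlap, and the rise was 1.09 ± 0.11 (adjusted p = 6.52e-07). Among rats labelled Per1KO it ranged from 44.2 to 68.4 FPKM at 2pm, and at 2am it held 73.2, 67.9, 58.3, 58.4 and 54.9 FPKM, a difference of 0.17 ± 0.12 that did not pass (adjusted p = 0.481). The interaction was -0.93 ± 0.16 (adjusted p = 0.00527). At 2pm Tsc22d3 was higher in rats labelled Per1KO by 0.54 ± 0.11 (adjusted p = 0.0302), and the lowest of these libraries stood above the highest SS library. The adjusted p of that difference ran from 0.0184 to 0.208 over 18 alternatives and missed the threshold in 10, including the omission of SS replicate 2, 3 or 4 or of labelled Per1KO replicate 3, 4, 5 or 6 in turn. The shorter Tsc22d3 row, of 345 bases on the same strand at X, 111942102 to 111942749, also rose with time in SS (0.89 ± 0.13, adjusted p = 0.000105). Its other differences did not pass. Its interaction was -0.45 ± 0.19 (adjusted p = 0.168), and its 2pm difference between labels 0.21 ± 0.13 (adjusted p = 0.46). In rats labelled Per1KO its change with time was 0.44 ± 0.14 (adjusted p = 0.0982), larger than that of the longer row.

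Since Sgk1 and Tsc22d3 passed together on normal salt, the letters before their starts are shown, from the RefSeq promoter table of build GRCr8, whose coordinates are not those of the deposited tables. RefSeq gives windows for 5 of the 9 genes, Sgk1 and Tsc22d3 with 3 starts each. Shown is the window of each gene with the match TATAAA, and for Sgk1 the nearer to its start of 2 such windows. Sgk1 lies at chr1:24804832-24805081 and Tsc22d3 at chrX:109010035-109010284, both on the minus strand, printed 5′ to 3′ up to the base before the start. Capitals mark TATAAA, the TATA box letters.
Sgk1: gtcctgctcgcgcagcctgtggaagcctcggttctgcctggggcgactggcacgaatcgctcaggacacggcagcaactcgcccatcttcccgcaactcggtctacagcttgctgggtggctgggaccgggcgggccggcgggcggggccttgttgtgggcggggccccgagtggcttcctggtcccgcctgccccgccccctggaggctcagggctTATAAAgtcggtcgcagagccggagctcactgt
Tsc22d3: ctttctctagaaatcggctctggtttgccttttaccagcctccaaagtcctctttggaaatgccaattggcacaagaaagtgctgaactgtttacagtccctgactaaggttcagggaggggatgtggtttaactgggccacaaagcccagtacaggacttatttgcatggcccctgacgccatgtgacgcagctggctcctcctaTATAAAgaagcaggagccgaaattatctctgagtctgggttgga

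The TATAAA match begins 33 bases before the Sgk1 start and 44 before the Tsc22d3 start. Searched on both strands over the 250 bases before each start, TATAAA was in 12.9% of all 33469 rat windows and in 3 of the 11 windows of these genes and Per1, of which the third belongs to Sgk1. TGACG, a core of the cyclic AMP response element, was in 18.2% of all windows, at 75 and 65 bases before the printed Tsc22d3 start and at 79 bases before the Klf9 start. AGAACA, a single arm of the glucocorticoid response element, was in 17.5% of all windows, and the E-box CACGTG of the clock activators in 5.59%. The paired element, AGAACA, 3 bases of any kind and TGTTCT, was in 0.012%. None of these 3 was in any of the 11 windows, which says only that the letters are not there. TATAAA and TGACG did not overlap where both occurred.

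The genes whose pattern over the 8 group means was nearest to that of Sgk1 were Lrrc58 and Fndc3b (mean absolute distance 0.124 log2 units each), Hipk2 (0.127), Lpp (0.134) and Nuak2 (0.14), among 13260 genes with each table centred on its own mean. Lrrc58, the closest, went from 20.3 to 37 FPKM between 2pm and 2am in SS on normal salt, and was 29.3 and 31.9 FPKM in rats labelled Per1KO. Nearest to Tsc22d3 were Dcbld2 (0.072), Myct1 (0.085), Pnrc1 (0.089), Bmpr2 and Tfcp2l1 (0.094 each). The 9 genes were left out of these rankings, so neither Sgk1 nor Tsc22d3 could be among the nearest of the other.

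On high salt the SS rise of Sgk1 was again seen. The 2pm libraries held 47.1, 57.5, 54.8, 55 and 67.7 FPKM and the 2am libraries 112, 146, 83, 83.3 and 89.4 FPKM, with no overlap. The rise was 0.83 ± 0.20 (adjusted p = 0.0248). Libraries of rats labelled Per1KO held 100, 67.6, 66, 88 and 45.8 FPKM at 2pm, and the 2am libraries 105, 105, 56.3, 76.9 and 90.4 FPKM. These groups overlapped, with a difference of 0.25 ± 0.20 (adjusted p = 0.578), and the interaction of label with time was -0.58 ± 0.29 (adjusted p = 0.391). The SS rise did not pass without SS 2pm replicates 4 and 5, the libraries low in proximal tubule markers, although its size was then 0.91 (adjusted p = 0.0773). It was also lost without 2pm replicate 4 alone or without 2am replicate 1 or 2 (adjusted p 0.0588 to 0.0645), with no expression filter (0.0782) and in a fit of only the groups compared (0.0733). Tsc22d3 on high salt held 63.2, 55.3, 23.3, 36.6 and 41 FPKM in SS at 2pm and 66.9, 57, 57.3, 57.2 and 63.3 FPKM at 2am. The difference of 0.53 ± 0.21 did not pass (adjusted p = 0.129), and it passed at 0.67 when 2pm replicate 1 was left out (adjusted p = 0.0304). SS 2pm replicates 1 and 2 are of an earlier library number series than replicates 3 to 5. They held 55.3 to 63.2 FPKM of Tsc22d3, and the later libraries 23.3 to 41. For the shorter row they held 18.6 and 15.7 FPKM, and the later libraries 2.87 to 3.17.

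By mean level over all 8 groups, Sgk1 was lowest in SS at 2pm on normal salt (43.4 ± 15.3 FPKM, SD), then in SS at 2pm on high salt (56.4 ± 7.43), labelled Per1KO at 2pm (73.5 ± 21.0) and at 2am (86.8 ± 20.8) on high salt, labelled Per1KO at 2pm (93.3 ± 15.1) and 2am (94.6 ± 13.9) on normal salt, SS at 2am on high salt (103 ± 26.9) and SS at 2am on normal salt (138 ± 46.7). The libraries of each pair of neighbours in this order overlapped. Both diets were deposited in separate tables, so that diet and table cannot be told apart, and levels across diets are set side by side without a test.

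Fkbp5 encodes FKBP51, a co-chaperone that lowers the hormone affinity of the glucocorticoid receptor and is itself induced by it. In rats labelled Per1KO on normal salt it held 10.5, median 12.6 and 24.8 FPKM as lowest, middle and highest values at 2pm, and 21.7, 26.4, 31.4, 36.1 and 27.8 FPKM at 2am. Replicate 4 at 2pm (24.8 FPKM) lay within the 2am range and replicate 3 (20.8 FPKM) just below it. The rise was 0.89 ± 0.22 (adjusted p = 0.0305). In SS the 2pm libraries ranged from 10.7 to 28.1 FPKM and the 2am libraries from 11.2 to 21.5 FPKM, a difference of 0.01 ± 0.21 (adjusted p = 0.977), and the interaction of 0.88 ± 0.31 did not pass (adjusted p = 0.103). The call in rats labelled Per1KO was lost when 2pm replicate 1, 2, 5 or 6 or 2am replicate 2, 3, 4 or 5 was left out (adjusted p 0.0588 to 0.0897), and with no expression filter (0.0879). Labelled Per1KO 2pm replicate 1 was also the library with the most mRNA of fat markers (the other 5 of the group summed to 28 to 55.3 FPKM). The part of fat in the result was not tested beyond leaving out that library (0.80, adjusted p = 0.0761).

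Fkbp5 did not pass between labels at 2am on either diet, although all its labelled Per1KO libraries lay above those of SS. How many of all genes are separated in this way between labels was not counted. On normal salt the means were 28.7 ± 5.43 FPKM (SD, n = 5) against 17.4 ± 3.43 (n = 6), a difference of 0.69 ± 0.22 (adjusted p = 0.0809), and on high salt 27.5 ± 7.25 against 15.9 ± 3.21 (n = 5 each), a difference of 0.74 ± 0.40 (adjusted p = 0.273). With 1 library left out, 0 of 11 fits passed on normal salt and 0 of 10 on high salt. Of 6 other settings, 2 passed on normal salt and 1 on high salt. A fit of only the groups compared passed on both diets (adjusted p = 0.0131 and 0.0184). Voom, a count model on the recovered fragments, passed on normal salt only (0.86, adjusted p = 0.0235). Leukocyte markers were higher in rats labelled Per1KO in both comparisons, 5 of 8 on normal salt and 4 of 8 on high salt, and their part in the Fkbp5 values was not tested. At 2pm on high salt the spread was wide: SS held 54.2, 48.8, 9.86, 9.98 and 24.8 FPKM and labelled Per1KO 18.4, 41.9, 45.8, 21.4 and 17.3 FPKM. SS replicates 1 and 2, with library names of the first number series of that group, held the highest values.

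Zbtb16, the transcriptional repressor PLZF, was the least abundant of the 9, with group means of 0.967 to 3.20 FPKM. On normal salt it held 0.441, 0.383, 1.12, 4.7, 0.346 and 0.355 FPKM at 2pm in rats labelled Per1KO and 1.58, 1.81, 3.41, 4.71 and 4.47 FPKM at 2am. Replicate 4 at 2pm stood apart from the other 2pm libraries and lay within the 2am range. With all libraries the difference was 1.08 ± 0.33 (adjusted p = 0.0752), and without that replicate it was 1.40 (adjusted p = 0.00338). By voom with all libraries it was 2.16 (adjusted p = 0.0269), and with a pseudocount of 0.1 it was 1.87 (adjusted p = 0.0651). Zbtb16 rested on 3 to 411 fragments per library, the fewest of the 9, followed by Nr3c2 with 163 to 587. On high salt SS at 2pm held 6.33, 3.69, 0.0683, 0.588 and 1.46 FPKM, again with replicates 1 and 2 highest. Klf9, a Kruppel-like factor induced by glucocorticoids, lay between 22.2 and 70.6 FPKM in all libraries and passed in none of the 14 comparisons. Its SS 2pm libraries on high salt held 70.6, 56, 47, 22.2 and 35 FPKM against 43.1, 28.8, 33.5, 44.2 and 24.2 FPKM in rats labelled Per1KO. That difference of -0.33 ± 0.23 (adjusted p = 0.303) was -0.74 and passed without SS replicates 4 and 5 (adjusted p = 0.00672). Both of these libraries are of the later number series. In the first series Klf9 averaged 63.3 FPKM in SS (n = 2) and 35.1 in rats labelled Per1KO (n = 3), and this series alone passed (-0.84, adjusted p = 0.0252). In the later series the means were 34.8 (n = 3) and 34.2 FPKM (n = 2).

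**Figure D2:**
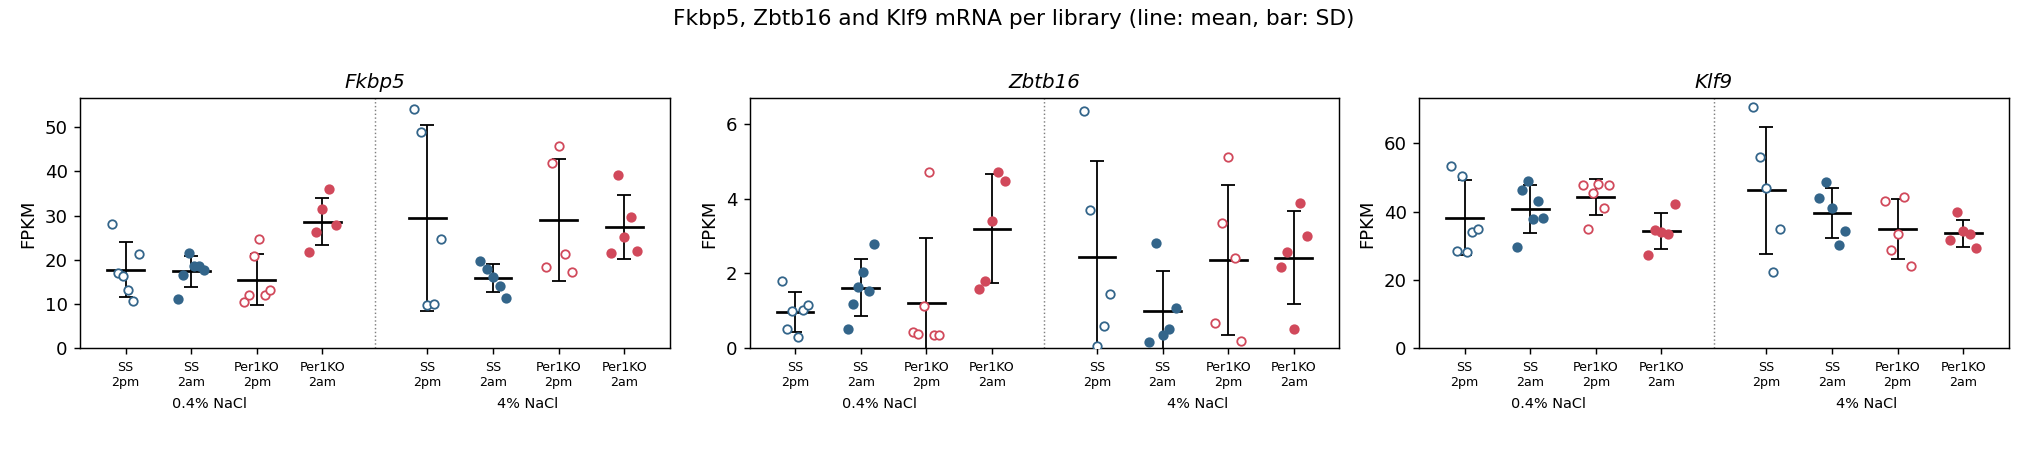
FPKM of Fkbp5, Zbtb16 and Klf9 in each library (y axis) by group (x axis: genotype label and time; left of the dotted line 0.4% NaCl, right 4% NaCl). Open points are 2pm and filled points 2am, blue SS and red labelled Per1KO, lines are means and bars SD, cut at 0: SS at 2pm on high salt is spread most for Fkbp5, from 9.86 to 54.2 FPKM, and a single open point at 4.7 FPKM stands apart for Zbtb16.

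Nr3c1, the glucocorticoid receptor gene, varied little. In SS on normal salt it ranged from 15.2 to 21.8 FPKM at 2pm and from 22.4 to 25.1 FPKM at 2am, and the groups did not overlap (0.32 ± 0.07, adjusted p = 0.00362). Rats labelled Per1KO ranged from 18.5 to 24.2 FPKM at 2pm and had 20.3, 18.9, 21.2, 19.5 and 20.7 FPKM at 2am (-0.10 ± 0.08, adjusted p = 0.54). At 2am every labelled Per1KO library lay below every SS library, a difference of -0.21 ± 0.08 that did not pass (adjusted p = 0.122). It passed in a fit of only the groups compared (adjusted p = 0.00789). The interaction was -0.42 ± 0.11 (adjusted p = 0.038), and it missed the threshold in 16 of 28 alternatives. Those include the omission of SS 2pm replicate 2 or 4, SS 2am replicate 1, 2, 3 or 5, labelled Per1KO 2pm replicate 1, 3, 5 or 6, or labelled Per1KO 2am replicate 1, 2, 3 or 4 (adjusted p 0.0513 to 0.0851), no expression filter (0.0842) and voom (-0.31, adjusted p = 0.114). The shorter Nr3c1 row (chromosome 18, 32669427 to 32670665) also rose with time in SS, by 0.72 ± 0.22 (adjusted p = 0.0191). Its interaction of -0.73 ± 0.31 did not pass (adjusted p = 0.169). On high salt the change of the longer row with time in SS was 0.1 ± 0.09 and did not pass (adjusted p = 0.501). Nor did the interaction there (95% interval -0.25 to 0.25, adjusted p = 0.999).

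Nr3c2, the mineralocorticoid receptor gene, had group means of 4.32 to 6 FPKM, below Nr3c1 in every group (18.7 to 25.1 FPKM). It passed in none of the 14 comparisons. Its largest difference between times or labels was -0.18 ± 0.12, between labels at 2am on normal salt (adjusted p = 0.452). The receptor gene lies over 2 genes on the other strand, SNORA17 and LOC688462, which reached at most 0.768 and 0.193 FPKM, and the labels do not say whether counting used strand.

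Hsd11b1, which regenerates active corticosterone, was lower in rats labelled Per1KO at 2pm on high salt. The libraries held 75.4, 115, 77.4, 117 and 86.6 FPKM against 102, 133, 132, 166 and 165 FPKM in SS. The 2 highest labelled Per1KO libraries lay within the SS range. The difference was -0.56 ± 0.14 (adjusted p = 0.00579), and by voom it was -0.33 and did not pass (adjusted p = 0.0877). At 2am on high salt the ranges were 111 to 128 and 107 to 145 FPKM (-0.05 ± 0.14, adjusted p = 0.861). The SS group at 2pm contains both libraries low in proximal tubule markers, and without them the difference was -0.38 (adjusted p = 0.0471). Proximal tubule markers summed to 1270 to 2170 FPKM in rats labelled Per1KO and 827 to 4670 FPKM in SS, with 1 of 8 lower. Of 8 leukocyte markers 7 were higher in rats labelled Per1KO (sums 1050 to 1490 against 770 to 1170 FPKM). Their part in the Hsd11b1 result was not tested. That group also mixes 2 library number series. With the series as a covariate the difference was -0.50 (adjusted p = 0.0552), within the first series -0.40 (2 SS and 3 labelled Per1KO libraries, adjusted p = 0.226) and within the later -0.60 (3 and 2, adjusted p = 0.213).

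Hsd11b2, which protects the mineralocorticoid receptor from corticosterone, was the most abundant of the 9 by group mean in every group (138 to 197 FPKM), and it passed in none of the 14 comparisons. In SS at 2pm on normal salt it ranged from 85.5 to 356 FPKM with a median of 170. The highest value was that of replicate 2. The other 6 collecting duct markers summed to 206 FPKM in that library, and to 106 to 206 FPKM in the group (median 151). Their sum was also 206 FPKM in replicate 6, where Hsd11b2 was at 211 FPKM. In replicate 5 their sum was 178 FPKM and Hsd11b2 was lowest, at 85.5 FPKM. On high salt its median in rats labelled Per1KO was 191 FPKM at 2pm and 141 FPKM at 2am, a difference of -0.48 ± 0.17 (adjusted p = 0.195).

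**Figure D3:**
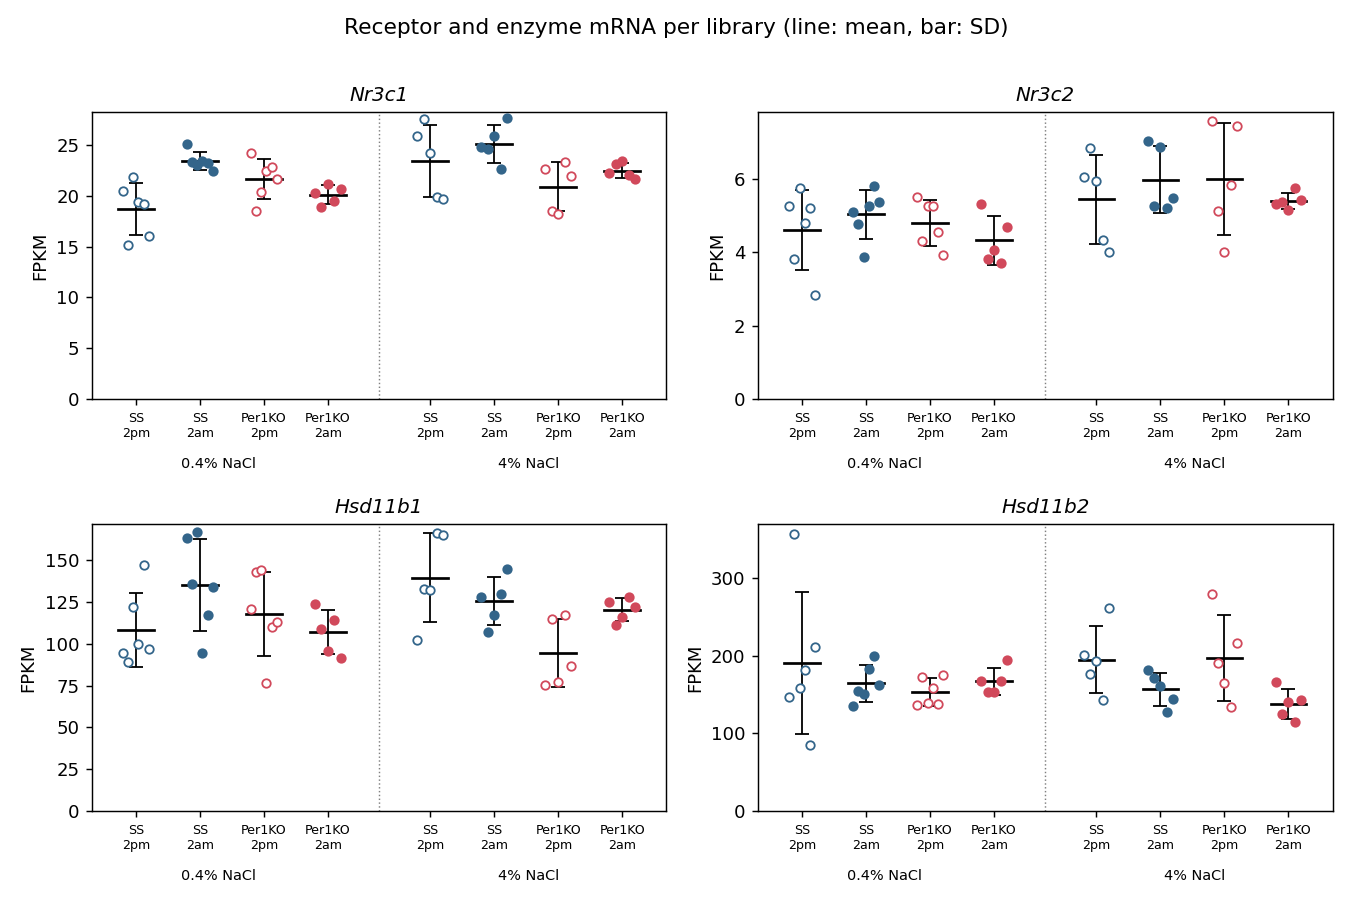
FPKM of the receptor genes Nr3c1 and Nr3c2 and the enzyme genes Hsd11b1 and Hsd11b2 in each library (y axis) by group (x axis: genotype label and time; left of the dotted line 0.4% NaCl, right 4% NaCl). Open points are 2pm and filled points 2am, blue SS and red labelled Per1KO, lines are means and bars SD: Hsd11b1 at 2pm on high salt averages 94.4 FPKM in red and 140 FPKM in blue, and Nr3c2 stays between 2.83 and 7.58 FPKM.

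Over the 9 genes, counts in each comparison read as follows against the share of all genes tested that passed. Between labels on normal salt at 2pm, 2 of 9 passed, both higher, against 0.372% of all genes, and at 2am 0 of 9 against 4.18%, with 3 of 9 at an unadjusted p under 0.05 (19.7% of all genes). Between labels on high salt, 1 of 9 passed at 2pm, lower, against 29.8%, and 0 of 9 at 2am against 8.95%, with 0 at an unadjusted p under 0.05 (23.9% of all genes). Between times on normal salt, 3 of 9 rose in SS (26.3% of all genes passed) and 1 of 9 in rats labelled Per1KO (3.11%). Between times on high salt, 1 of 9 rose in SS (5.44%) and 0 of 9 passed in rats labelled Per1KO (0.262%), with 2 at an unadjusted p under 0.05 (15.9% of all genes). The interaction of label with time took 3 of 9 on normal salt, all lower, against 2.81%, and 0 of 9 on high salt against 0.101%, with 1 at an unadjusted p under 0.05 (13.7% of all genes). The 3 of 9 for time in SS on normal salt is near the share of all genes.

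**Figure D4:**
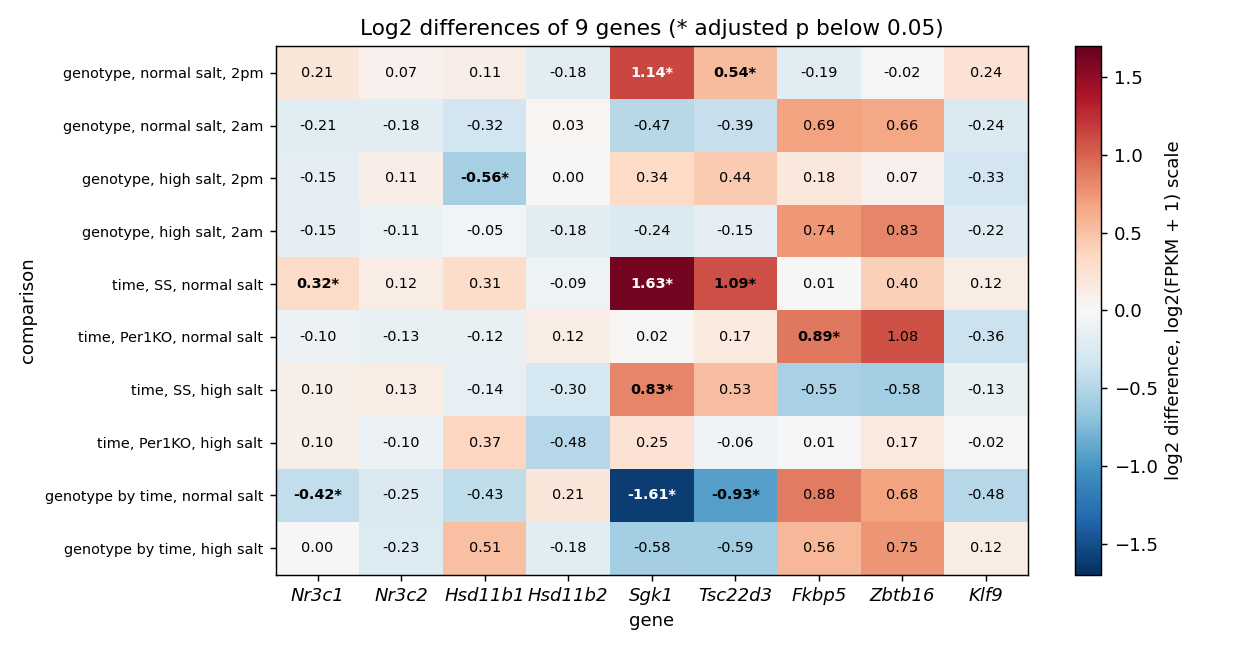
Log2 differences on the log2(FPKM + 1) scale of the 9 genes (x axis) in 10 comparisons (y axis: comparison), as colour and number: labelled Per1KO minus SS for genotype, 2am minus 2pm for time, and the difference of the time changes for genotype by time. Values with an asterisk passed at an adjusted p below 0.05, as for Sgk1 at 1.63 for time in SS on normal salt and -1.61 for the interaction.

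The difference between labels was compared between diets at 2pm in a fit of all 43 libraries, in which an effect of the tables shared by both labels cancels. An effect of the library name or number series does not cancel, since only the SS normal salt libraries carry OK names and both high salt groups mix 2 number series. It was lower on high salt than on normal salt for Nr3c1 (-0.36 ± 0.12, adjusted p = 0.0235) and Hsd11b1 (-0.68 ± 0.22, adjusted p = 0.023), 2 of 9 against 22% of all genes. This count is near the share of all genes and is no result about the 9 genes. Sgk1 had -0.80 ± 0.31 (adjusted p = 0.06). The Nr3c1 call was lost without SS normal salt replicate 2, SS high salt replicate 2, or labelled Per1KO high salt replicate 2 or 3 (adjusted p 0.0525 to 0.0618), and by voom it was -0.15 (adjusted p = 0.358). On high salt at 2pm Nr3c1 averaged 26.7 FPKM in SS and 19.8 in rats labelled Per1KO within the first number series. Within the later series the means went the other way, at 21.3 and 22.6 FPKM. The Hsd11b1 call was lost without labelled Per1KO high salt replicate 3 (adjusted p = 0.0547), without SS high salt replicates 4 and 5 (-0.50, adjusted p = 0.0955), by voom (-0.45, adjusted p = 0.124) and with no expression filter (adjusted p = 0.0545). Klf9 had -0.57 (adjusted p = 0.133), and it passed without SS high salt replicates 4 and 5 (-0.98, adjusted p = 0.00374). Both of these are of the later number series, in which the high salt means of Klf9 were 34.8 FPKM in SS and 34.2 in rats labelled Per1KO. At 2am 0 of 9 passed, as did 0% of all genes (limma; 821 genes at an unadjusted p under 0.05), and 0 of 9 were at an unadjusted p under 0.05. The change with time was compared between diets likewise: 0 of 9 passed in SS against 0.0709%, with 3 at an unadjusted p under 0.05 where 13.6% of all genes were (Sgk1 -0.81 ± 0.31, adjusted p = 0.257). In rats labelled Per1KO 0 of 9 passed against 2.94%, with 2 at an unadjusted p under 0.05, near the 19.9% of all genes.

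Of the levels on both diets, set side by side, libraries of high and normal salt overlapped for all 9 genes in SS at 2pm (6.4% of all genes did not overlap), in SS at 2am (5.89%) and in rats labelled Per1KO at 2pm (22.4%). In rats labelled Per1KO at 2am 1 of 9, Nr3c1, was above on high salt in every library (21.6 to 23.4 against 18.9 to 21.2 FPKM), where 20.2% of all genes did not overlap.

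Related genes, by lists chosen with earlier results of these data known, are given for SS between 2pm and 2am on normal salt, where the median of all genes was -0.004, 14.3% of all genes rose and 12% fell. Counts near these shares, as for the distal transport genes and the other glucocorticoid-induced genes, are no result about the list. Of 11 tested chaperone genes that hold the receptors ready for hormone, 7 rose and 0 fell (median 0.21), with the immunophilin Fkbp4 at 0.79 ± 0.08, Hsp90ab1 at 0.56 ± 0.07 and Hsp90aa1 at 0.69 ± 0.11. Hsp90aa1 lay near the filter level of 1 FPKM (means 0.856 and 1.95 FPKM), far below Hsp90ab1 (439 and 641 FPKM). Of 14 receptor coregulators 10 rose and 1 fell (median 0.32), among them the corepressors Ncor1 (0.55 ± 0.11) and Nrip1 (0.42 ± 0.09) and the coactivator Ncoa3 (0.38 ± 0.10). Of 12 genes of the SGK family, its activators and its targets 7 rose and 0 fell (median 0.39). Ndrg1, whose protein is a substrate of the SGK kinases, rose by 2.03 ± 0.12, from 359 ± 52.6 to 1460 ± 162 FPKM (SD, n = 6), Mtor by 0.40 ± 0.09 and the forkhead factor Foxo1 by 0.80 ± 0.18. Of 29 other genes known to be induced by glucocorticoids 6 rose and 3 fell (median -0.05), with Fkbp4 counted again, the sulfotransferase Sult1a1 at 0.79 ± 0.12 and the gluconeogenic G6pc at 1.66 ± 0.34. Per1, itself a glucocorticoid-induced gene, had -0.31 ± 0.22 (adjusted p = 0.302). Of 21 genes of distal sodium transport under aldosterone 3 rose (median 0.11): the potassium channel Kcnj10 (0.71 ± 0.15), Cul3 (0.16 ± 0.05) and the kinase Wnk1 (0.38 ± 0.14). Of 6 tested genes of steroid supply and metabolism Srd5a1 rose (0.25 ± 0.09), and Abcb1a and Hsd17b11 fell (-0.53 ± 0.09 and -0.23 ± 0.07). Of 17 core clock genes 7 rose and 7 fell, led by the repressor gene Nr1d1 (-3.67 ± 0.11).

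Between the same times in rats labelled Per1KO, where 1.66% of all genes rose and 1.45% fell, 4 of 11 chaperones rose (Fkbp4 0.49 ± 0.08), 1 of 14 coregulators (Smarca4, 0.22 ± 0.05) and 1 of 12 SGK family genes (Ndrg1, 0.76 ± 0.13). Of distal transport genes 3 of 21 rose, among them the sodium channel subunit Scnn1a by 0.86 ± 0.16. The difference between labels in the change with time, which passed for 2.81% of all genes, passed for 0 of 11 chaperones, for 1 of 14 coregulators (Ncor1, -0.65 ± 0.17), and for 1 of 12 SGK family genes (Ndrg1, -1.27 ± 0.18, adjusted p = 0.000605). It passed for 3 of 29 other glucocorticoid-induced genes: the antioxidant gene Sesn1 (-0.50 ± 0.11) and the kinase gene Pdk4 (-1.25 ± 0.32) were lower and Anxa1 (0.64 ± 0.17), the annexin that curbs inflammation, was higher. It passed for 0 of 21 distal transport genes and 11 of 17 core clock genes (6 higher, 5 lower). At 2pm on normal salt, 2 genes of these lists outside the clock passed between labels (0.372% of all genes did), Angptl4 (1.04 ± 0.21), a glucocorticoid- and PPAR-induced inhibitor of lipoprotein lipase, and Ndrg1 (0.76 ± 0.12), both higher in rats labelled Per1KO.

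Markers of cell types passed in some of these comparisons, and the share of all genes that passed is given beside each count. Between times in SS on normal salt 14 of 63 markers of 13 cell types passed, 7 in each direction, where 26.3% of all genes did. Of these, 3 of 8 proximal tubule markers were higher at 2am (summed level 3790 to 4810 against 1560 to 4280 FPKM) and 5 of 8 leukocyte markers lower (1010 to 1260 against 1080 to 1770 FPKM). Without SS 2pm replicate 5 the Sgk1 rise was 1.61 and the Tsc22d3 rise 1.12, both passing. Between labels at 2pm on normal salt 0 of 63 markers passed (0.372% of all genes), and at 2am 5 did (4.18%), all among the 8 leukocyte markers and all higher in rats labelled Per1KO (1190 to 1370 against 1010 to 1260 FPKM). Between labels at 2pm on high salt, where Hsd11b1 passed, 14 of 63 markers were higher and 6 lower in rats labelled Per1KO (29.8% of all genes passed). Higher were 7 of 8 leukocyte and 3 of 5 smooth muscle and pericyte markers, and 2 of 7 collecting duct markers were lower. Between labels at 2am on high salt 5 were higher, 4 of them leukocyte markers, and 2 lower (8.95% of all genes passed). Between times on normal salt in rats labelled Per1KO, where Fkbp5 rose, 2 of 63 markers were higher and 1 lower (3.11%). Between times on high salt in SS, where Sgk1 rose, 1 was higher and 4 lower (5.44%). The part of cell makeup in these results was otherwise not tested.

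Within groups, the deviation of a library from its group mean was compared between Sgk1 and each other gene and Per1 (9 relations, 43 libraries, 100000 permutations within groups, two-sided). Tsc22d3 varied with Sgk1, with Pearson r = 0.47 (permutation p = 0.00064, adjusted 0.00288) and Spearman rho = 0.56 (permutation p = 0.00027, adjusted 0.00121), and r was 0.45 without the 2 libraries farthest from the median. It was 0.67 in 23 normal salt and 0.37 in 20 high salt libraries. Per1 varied with Sgk1 as well, with r = 0.61 (permutation p = 0.00024, adjusted 0.00216) and rho = 0.64 (permutation p = 7e-05, adjusted 0.00063), and r was 0.59 without the 2 farthest libraries, 0.69 on normal salt and 0.49 on high salt. No other relation passed: Fkbp5 had r = 0.12, Zbtb16 0.18, Klf9 0.26, Nr3c1 -0.19, Nr3c2 -0.27, Hsd11b1 -0.06 and Hsd11b2 0.16, with adjusted permutation p of r from 0.279 to 0.724. The libraries share depth and cell makeup as well as these genes, and the part of either in the relations was not tested.

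**Figure D5:**
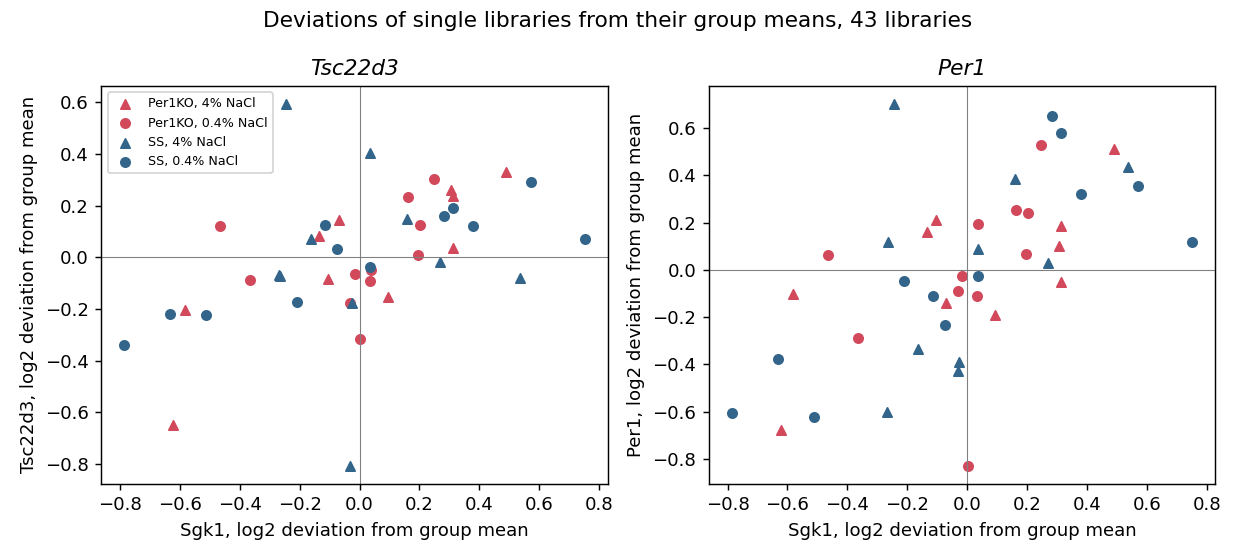
Deviation of each library from its group mean in log2(FPKM + 1), Sgk1 on the x axis and Tsc22d3 (left) or Per1 (right) on the y axis, for 43 libraries. Blue is SS and red labelled Per1KO, circles 0.4% NaCl and triangles 4% NaCl: the points rise from lower left to upper right in both panels (r = 0.47 and 0.61).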

How the data were processed

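The authors deposited a table of FPKM per gene and library for each diet, named for 43 libraries (0 columns had no sample). Tools listed in the submitters' processing notes are featureCounts 1.5.0-p3, StringTie 1.3.3b, HISAT2 2.0.5 and fastp, with no role stated. Which build was used is not given in the sources here. FPKM times gene length gave whole fragments for 100% of values within 0.01. The high salt table holds 4 blank lines. Genes reaching 1 FPKM in 5 or more libraries were tested on log2(FPKM + 1) with limma 3.58.1 (R 4.3.3; empirical Bayes, intensity trend), with the spread pooled over the 4 groups of a table, and over 8 groups for the 14102 genes of both tables in comparisons between diets. Tested on simulated data for labels at 2pm, with 200 genes changed, it recovered 88% of 2-fold changes among 13436 genes on normal salt and 80% among 14899 on high salt, and 6.57% and 8.67% of its calls were false. For 1.5-fold changes it recovered 82% on normal salt and 48% on high salt. The simulated noise was normal and independent between genes, so these shares need not hold for the real libraries. The 9 genes, the 7 gene lists and the 13 marker lists were chosen with earlier results of these data known. Of each list the 3 genes with the smallest p are named, and Per1. Alternatives were median-ratio rescaling, a pseudocount of 0.1, a block for replicate number, no filter, leaving out each library, a fit of only the groups compared, voom on the fragments, and library number series. The omission of both SS high salt 2pm libraries that were low in proximal tubule markers was added after seeing the data.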

Additional observations from a re-analysis of the deposited data

Results flagged for a closer look

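Zbtb16 stood apart in labelled Per1KO replicate 4 at 2pm on normal salt, at 4.7 FPKM where the other 5 libraries lay between 0.346 and 1.12. It is the 1 such library found in 72 sets of libraries of a gene and group, and chance flags about 1 in 20 sets.

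The change from 2pm to 2am on normal salt differed between SS and rats labelled Per1KO for Nr3c1 (-0.42), Sgk1 (-1.61) and Tsc22d3 (-0.93). The difference between labels at 2pm differed between diets for Nr3c1 (-0.36) and Hsd11b1 (-0.68). These 5 are log2 differences of differences that passed in limma.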

How the results depend on the processing

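In 2707 fits of 126 results of a gene in a comparison, 2621 kept their side of the threshold, 60 lost a call, 26 gained one and 0 reversed a called direction. Of the 9 genes the following numbers passed under settings that moved the count by over 1.5 times. Between labels on normal salt at 2pm, 2 passed, but 0 with no filter, 0 in a fit of only the groups compared, 1 with a replicate block, and 0 to 2 when each library was left out. At 2am 0 passed, but 1 by voom, 3 in a fit of only the groups compared and 0 to 1 with libraries left out. Between labels on high salt at 2pm 1 passed, but 2 by voom (Sgk1 and Tsc22d3, with Hsd11b1 lost), 3 without SS replicates 4 and 5, 0 with library number series as a covariate, 0 in the later series alone and 1 to 2 with libraries left out. At 2am 0 passed, but 1 in a fit of only the groups compared. Between times 1 passed in rats labelled Per1KO on normal salt, but 0 with no filter, 2 by voom and 0 to 2 with libraries left out. In SS on high salt 1 passed, but 0 with no filter, 0 in a fit of only the groups compared, 0 without SS replicates 4 and 5 and 0 to 2 with libraries left out. For label by diet at 2pm 2 passed, but 1 with no filter, 0 by voom and 0 to 3 with libraries left out. The cause was not tested.

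Libraries with the same replicate number in different groups had residuals that correlated by 0.0188 on average on normal salt and by 0.0318 on high salt. Those with different numbers averaged -0.00391 and -0.00786. Single pairs with the same number ran from -0.526 to 0.612 on normal salt and from -0.23 to 0.421 on high salt. No pairing by number was seen on average, and an average cannot exclude one. The replicate block changed 1 call of a gene, Tsc22d3 between labels at 2pm on normal salt (adjusted p = 0.0738). Separate fits per table for the comparisons between diets were not run as a test, since they give the same differences of group means. Zbtb16 rests on 3 to 411 fragments per library, so its low values carry a large counting error.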
